A study of Mus musculus with 32 samples.

Results

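The superior mesenteric ganglia (SMG) of 3-week-old TH-MYCN mice differ from one another in how strongly they express the genes of dividing cells, and the 8 ganglion samples of this genotype are described here along that gradient. They are 8 of the 28 samples of the series, which lie on 32 arrays. The samples were placed in order by a proliferation score, the mean log2 level of Ccnb1, Top2a, Ube2c, Mki67, Plk1 and Cdk1 in each sample, so the ordering was chosen by measured values, and the levels of these 6 genes are given as a description with no test. A log2 level is the log2 processed intensity of a probe minus the 75th percentile of its array. Every other named gene that was well above background on all 8 arrays was then regressed on the score.

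The 8 ganglia came from TH-MYCN hemizygotes (TH-MYCN+/-) on the strain background 129+Ter/SvJcl. The transgene is named for the tyrosine hydroxylase (TH) promoter that drives human MYCN in cells of the sympathetic lineage, so a ganglion holds transgene-expressing cells among glia, vessels and connective tissue. For placing the values, 8 SMG of 3-week-old wild-type mice of the same strain background were measured on the same type of array. So were 8 primary sphere cultures grown for 8 days from SMG of 3-week-old TH-MYCN mice. The last group was 4 sphere cultures, also from 3-week-old TH-MYCN mice, that had been passaged 5 times. The labels do not say whether a ganglion sample is 1 mouse or a pool, nor which samples were labelled from the smaller of the 2 RNA amounts used. The p-values therefore measure the spread between these samples. In bulk tissue, fewer cells of a type and less RNA per cell cannot be told apart, and this applies to every gene below.

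Neuroblastoma arises from precursors of the sympathetic nervous system that fail to leave the cell cycle, and amplification of MYCN, a transcription factor that drives growth and division, marks an aggressive form of it. A sympathetic neuroblast that matures stops dividing, takes up noradrenaline synthesis, and acquires nicotinic receptors, neurotrophin receptors and synaptic proteins. The genes of the score act late in the cell cycle: Ccnb1 and Cdk1 encode the kinase complex that starts mitosis, Plk1 a mitotic kinase, Top2a the enzyme that untangles sister chromosomes, Ube2c a ubiquitin-conjugating enzyme of the anaphase-promoting complex, and Mki67 the Ki-67 antigen that coats mitotic chromosomes. Such late genes carry a cell cycle homology region, with the letters TTTGAA or TTCGAA, and CCAAT boxes near their starts, whereas genes of DNA replication carry sites for E2F factors.

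The promoters of 3 of the 6 score genes and of 2 replication genes are shown. Among the gene lists below, mitosis and DNA replication had the highest median slopes on the score (0.95 and 0.86). The windows are RefSeq sequences of build GRCm38.p6 and run from 250 bases before to 50 bases after the annotated start, 5′ to 3′ on the strand of the gene. In the first 3, capitals mark the CCAAT box and the motifs TTTGAA and TTCGAA on either strand. Read from the other strand, the box appears as ATTGG, and the first of the other motifs appears as TTCAAA. In the last 2, capitals mark the E2F-like letters TTCCCGC or TTGGCGC on either strand (GCGGGAA and GCGCCAA).
Cdk1, chr10:69352863-69353162, minus strand: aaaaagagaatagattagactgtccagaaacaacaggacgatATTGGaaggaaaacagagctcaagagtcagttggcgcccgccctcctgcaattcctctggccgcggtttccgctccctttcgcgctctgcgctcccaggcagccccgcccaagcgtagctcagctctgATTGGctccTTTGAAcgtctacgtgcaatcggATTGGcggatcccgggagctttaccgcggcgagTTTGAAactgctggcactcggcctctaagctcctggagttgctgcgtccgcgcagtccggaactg
Ube2c, chr2:164769679-164769978, plus strand: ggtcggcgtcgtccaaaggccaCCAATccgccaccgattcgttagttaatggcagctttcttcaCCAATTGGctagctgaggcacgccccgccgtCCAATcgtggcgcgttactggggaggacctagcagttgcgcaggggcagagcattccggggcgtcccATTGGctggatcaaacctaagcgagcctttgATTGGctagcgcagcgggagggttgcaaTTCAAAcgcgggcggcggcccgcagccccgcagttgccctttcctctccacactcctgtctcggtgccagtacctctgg
Ccnb1, chr13:100786437-100786736, minus strand: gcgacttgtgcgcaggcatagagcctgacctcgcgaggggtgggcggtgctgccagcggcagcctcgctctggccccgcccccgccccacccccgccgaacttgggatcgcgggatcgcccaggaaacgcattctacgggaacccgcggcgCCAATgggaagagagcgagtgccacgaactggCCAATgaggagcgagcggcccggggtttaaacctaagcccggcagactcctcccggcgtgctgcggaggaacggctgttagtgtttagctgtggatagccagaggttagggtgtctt
Mcm6, chr1:128359656-128359955, minus strand: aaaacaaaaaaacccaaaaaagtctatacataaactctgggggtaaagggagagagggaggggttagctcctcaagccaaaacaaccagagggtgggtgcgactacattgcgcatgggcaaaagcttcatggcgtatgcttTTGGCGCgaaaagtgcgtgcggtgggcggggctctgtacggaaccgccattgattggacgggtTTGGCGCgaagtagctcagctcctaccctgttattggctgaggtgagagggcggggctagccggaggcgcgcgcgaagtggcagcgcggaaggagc
Mcm5, chr8:75109259-75109558, plus strand: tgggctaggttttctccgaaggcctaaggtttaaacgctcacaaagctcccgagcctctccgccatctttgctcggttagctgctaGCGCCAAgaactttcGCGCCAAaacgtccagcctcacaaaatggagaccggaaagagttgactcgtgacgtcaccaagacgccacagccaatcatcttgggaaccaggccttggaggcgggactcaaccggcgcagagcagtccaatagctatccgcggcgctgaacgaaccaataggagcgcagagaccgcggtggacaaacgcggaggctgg

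The Cdk1 window holds 3 CCAAT letters, all on the other strand, and 2 TTTGAA, of which the nearest begins 15 bases before the start. The Ube2c window holds 6 CCAAT and 1 TTTGAA, the latter on the other strand 29 bases before the start. The Ccnb1 window holds 2 CCAAT, 99 and 67 bases before the start, and neither TTTGAA nor TTCGAA. Mcm6 and Mcm5, subunits of the helicase that opens DNA for copying, each hold 2 TTGGCGC letters. Of 14315 tested genes, 11380 had a window in the table, and a gene with several windows was counted if any held the motif. TTTGAA or TTCGAA was present in 16.4% of these genes and in 19.2% of all 32851 windows. All 6 score genes held CCAAT, and 5 of them held TTTGAA or TTCGAA. Among 22 matched members of a mitosis list, 18 (81.8%) held TTTGAA or TTCGAA, against 5 of 22 (22.7%) of a DNA replication list. The E2F-like letters, which were chosen after the values were seen, showed the other order: 1 of 22 (4.55%) in the mitosis list, 14 of 22 (63.6%) in the replication list, and 13.3% of all tested genes with a window. The score genes did not follow that order: 3 of the 6 held TTGGCGC, Cdk1 and Ccnb1 among them. It is left in lower case in Cdk1 above. In Ccnb1 it reads GCGCCAA and overlaps the CCAAT box 99 bases before the start. Over all genes that rose with the score, 20.6% of 2293 held TTTGAA or TTCGAA and 19.3% held an E2F-like motif. Over all genes that fell, the shares were 12.8% and 11.1% of 2754. CCAAT was less particular, with 72.7% of the mitosis list, 63.6% of the replication list and 42.6% of all tested genes. The letters TTGG are common to ATTGG and TTGGCGC, so these motifs can overlap. A match is a description of the letters and not of a bound site.

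The score of the 8 ganglia spanned 2.11 log2 units, which is 4.33-fold between the lowest and the highest. From low to high it was 1.68 in TH-MYCN 4, 2.69 in 5, 2.77 in 7, 3.15 in 6, 3.43 in 3, 3.54 in 1, 3.75 in 2 and 3.79 in TH-MYCN 8. TH-MYCN 4 stood below the rest, and the other 7 formed a series with smaller steps. Wild-type ganglia scored -4.42 to -1.72, and the 8 primary spheres scored 4.66 to 4.87, so the whole TH-MYCN range lay between the 2 groups without touching either. The wild-type value of -1.72 rests on a Cdk1 level of 5.88 on 1 array, where the other 7 read -7.54 to -3.85. Passaged spheres scored 4.88 to 5.14 over the 4 cultures. The spread of 8 primary spheres was 0.216 log2 units, against 2.11 in the ganglia they can be grown from.

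**Figure D1:**
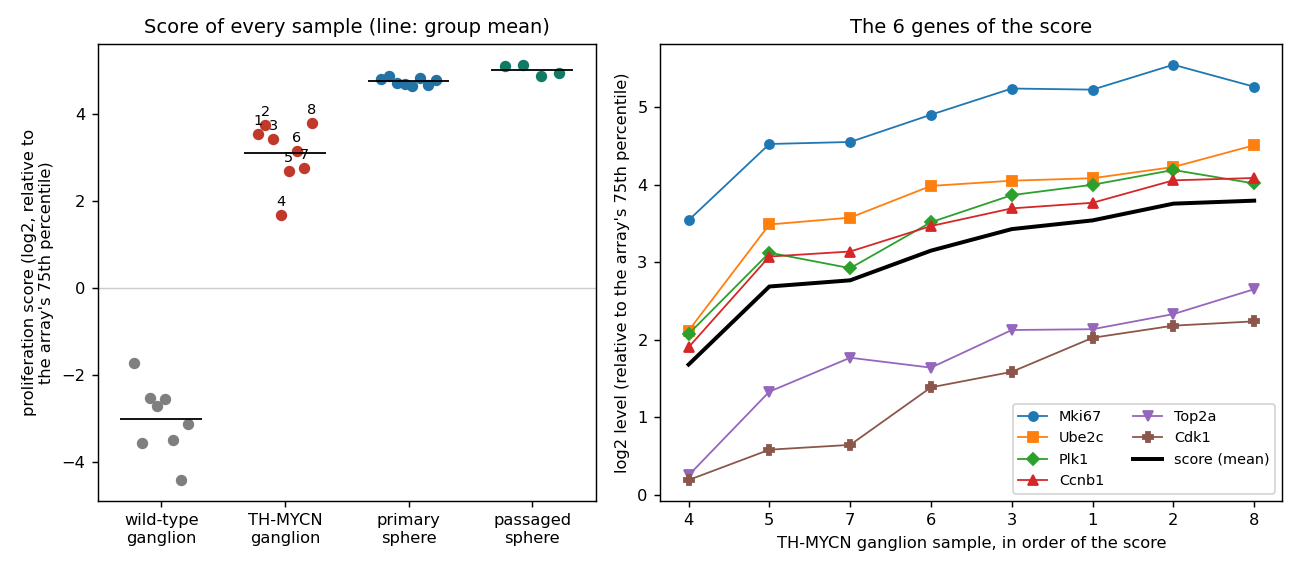
Left, the proliferation score (log2, y axis) of each sample in the 4 groups, with a line at the group mean and the TH-MYCN ganglia numbered by sample; the 2 arrays of each passaged culture are averaged. Right, the 6 genes of the score and their mean in the 8 TH-MYCN ganglia from the lowest to the highest score; TH-MYCN 4 is at 1.68 and TH-MYCN 8 at 3.79.

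The 6 genes moved together. Mki67 ranged from 3.54 to 5.54, Ube2c from 2.12 to 4.51, Plk1 from 2.07 to 4.19, Ccnb1 from 1.90 to 4.08, Top2a from 0.25 to 2.65 and Cdk1 from 0.19 to 2.24. All 6 were lowest in TH-MYCN 4 and highest in TH-MYCN 2 or 8. Their pairwise correlations over the 8 samples were 0.873 to 0.990, as a description of genes picked for their likeness.

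The noradrenergic neuron markers were present. Th was at 7.29 to 8.21 and Dbh at 7.75 to 8.42 in the 8 ganglia, and Hand2, Gata3, Prph, Chrna3 and Stmn2 were well above background on all 8 arrays. The arrays lay on 2 slides of 4 samples, with a mean score of 3.10 on each. The 75th percentile of signal was 840 to 1358 intensity units and 59.1% to 64.1% of spots were well above background. None of these measures, nor the negative control signal, correlated with the score at an adjusted p under 0.05 in an exact two-sided permutation test over 6 relations. The nearest was the share of spots well above background (Pearson's r = -0.608, exact p = 0.108, adjusted p = 0.325; Spearman's rho = -0.810, exact p = 0.0218, adjusted p = 0.0653; r = -0.768 without the 2 samples farthest from the median score). Both of the highest-scoring samples, TH-MYCN 2 and 8, lay on arrays where a dilution series of spike-in RNA gave a slope of 1.08, against 0.911 to 0.951 on the other 6. The calls over all genes and the counts of several lists are therefore also given without these 2 samples. The slope of the standard had r = 0.471 with the score (exact p = 0.223, adjusted p = 0.446; rho = 0.262, exact p = 0.536, adjusted p = 0.752; r = 0.603 without the 2 farthest). Its part in the results was not tested beyond these fits.

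A large share of the transcriptome followed the gradient. Of 14315 genes tested, 2826 rose with the score (19.7%) and 3512 fell (24.5%) at an adjusted p under 0.05 in limma with Benjamini-Hochberg adjustment. The slope is the log2 change of a gene per 1 log2 unit of the score, and its median over all genes was -0.03. With each sample left out in turn, 1526 genes rose and 2157 fell in every fit. Steep slopes were almost all on the rising side: 139 called genes had a slope of at least 1 and 4 had a slope of -1 or below. The score and the genes were read from the same arrays, so the relation is within one set of measurements. The leading principal component of the 14315 genes took up 59.6% of their variance, and TH-MYCN 4 lay at its one end and TH-MYCN 2 at the other. It followed the score with r = 0.956 (exact permutation p = 0.000174, adjusted p = 0.00104 over the 6 relations), rho = 0.952 (exact p = 0.00114, adjusted p = 0.00685) and r = 0.958 without the 2 samples farthest from the median score. Without TH-MYCN 4, 2161 genes rose and 3227 fell, of which 1706 and 2670 were also called with it. Without TH-MYCN 2 and 8 together, 1670 rose and 1573 fell. With the spike-in slope as a covariate and all 8 samples, 2072 rose and 2371 fell.

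The machinery of mitosis rose as one block. All 27 measured genes of a list of 28 were called, with slopes of 0.61 to 1.07 and a median of 0.95. Aurkb, the other member, was well above background on only 4 of the 8 arrays and was not tested. This block stands for the same program as the score, and its closeness to the score is not independent of the choice of the 6 genes. Bub1b, a checkpoint protein that holds cells in mitosis until chromosomes are attached, was at -1.03 in the lowest ganglion, 0.55 at the median and 1.099 in the highest. It was lowest in TH-MYCN 4 and highest in TH-MYCN 8, below the primary spheres (1.95 to 2.25) throughout. Its slope was 0.99 ± 0.051 (SE, n = 8; limma adjusted p = 1.45e-05), with r = 0.999. Bub1, its partner kinase, had a slope of 1.07 ± 0.057, Cdc20, the activator of the anaphase-promoting complex, 1.04 ± 0.055, and Aurka, a spindle pole kinase, 0.98 ± 0.052. Each had the same limma adjusted p of 1.45e-05. Without TH-MYCN 2 and 8, 27 of 27 still rose, and without TH-MYCN 4, 26 did.

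The genes most like the score by Pearson's r over the 8 samples were Bub1b (0.999), Fbxo5 (0.999), Depdc1a (0.998), Lrr1 (0.998) and Kntc1 (0.998). Fbxo5 inhibits the anaphase-promoting complex until mitosis and Kntc1 is a kinetochore protein. On the other side stood Hps3 (-0.995), Osbpl2 (-0.994), Sntg2 (-0.994), Gask1b (-0.993) and Ap1g2 (-0.991). Hps3 takes part in the making of lysosome-related organelles, Osbpl2 binds oxysterols and Ap1g2 is an adaptor subunit of vesicle sorting. Their slopes were shallow, from -0.48 to -0.22, so a close fit to the score here went with a small change in level.

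DNA replication rose to nearly the same extent. All 27 listed genes were measured and called, with slopes of 0.57 to 1.07 and a median of 0.86. Mcm5 was at 1.36 in the lowest ganglion, 3.00 at the median and 3.69 in the highest. TH-MYCN 4 was again lowest and TH-MYCN 8 highest, between wild-type ganglia (-1.66 to -1.15) and primary spheres (4.48 to 4.83). Its slope was 1.05 ± 0.059 (SE; limma adjusted p = 1.66e-05). Uhrf1, which carries DNA methylation through replication, had a slope of 1.07 ± 0.053, Cdc6, which loads the helicase, 1.02 ± 0.061, and Mcm7, another helicase subunit, 0.92 ± 0.054 (limma adjusted p of 1.45e-05, 1.71e-05 and 1.66e-05). The sliding clamp Pcna (0.65) and the flap endonuclease Fen1 (0.57) were among the shallower members and were named after their values were seen. All 27 stayed called without TH-MYCN 4 and without TH-MYCN 2 and 8.

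DNA repair followed replication. Of 18 measured genes (20 listed), 17 rose, against 19.7% of all genes, with a median slope of 0.82. Clspn, the claspin checkpoint adaptor, rose by 1.14 ± 0.060 per unit (limma adjusted p = 1.45e-05), from -3.29 in TH-MYCN 4 through a median of -1.50 to -0.86 in TH-MYCN 2, and was not well above background on any wild-type array. The homologous recombination genes Rad54l (1.01 ± 0.065) and Rad51ap1 (0.98 ± 0.062) had limma adjusted p-values of 1.99e-05. Atrip, a partner of the ATR kinase, had a slope of -0.01. Of the untested members, Brca1 and Chek1 were each well above background on 6 of 8 arrays.

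Histone genes expressed in S phase rose in 9 of 11 measured cases (15 listed), against 19.7% of all genes. Their median slope was 0.75. The linker histone H1f5 was at 1.71 in the lowest sample, 3.79 at the median and 3.94 in the highest, and its slope was 1.096 ± 0.109 (limma adjusted p = 0.000156). TH-MYCN 1, 2, 3, 6 and 8 lay between 3.72 and 3.94, and TH-MYCN 4, 7 and 5 lay below them. H1f1 (1.05 ± 0.101), H3c1 (1.00 ± 0.082) and H2ac4 (0.89 ± 0.098) rose as well, with limma adjusted p-values of 0.000134, 5.21e-05 and 0.000292. H1f2 fell (-0.50). Genes of the same core histone are near-identical copies, so signals of one may hold RNA of another. Without TH-MYCN 4, which had the lowest level of all 4 named genes, 5 of the 11 rose, where 2161 of all 14315 genes did. Among chromatin regulators of dividing cells, 17 of 20 rose with a median slope of 0.53. They included the histone chaperones Asf1b (1.00 ± 0.054, limma adjusted p = 1.45e-05) and Chaf1b (0.93 ± 0.088, limma adjusted p = 0.000121), the chromatin protein Hmgb2 (0.90 ± 0.054, limma adjusted p = 1.71e-05) and Ezh2, the methyltransferase of the Polycomb complex (0.84 ± 0.076, limma adjusted p = 8.83e-05). The Polycomb partners Eed and Suz12 rose less, by 0.22 and 0.27.

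Control of the G1 phase was mixed. Of 18 measured genes (20 listed), 11 rose and none fell, against 19.7% and 24.5% of all genes, with a median slope of 0.40. E2f8 (1.04 ± 0.058, limma adjusted p = 1.66e-05) and Ccne1, cyclin E1 (0.83 ± 0.057, limma adjusted p = 2.38e-05), rose steeply, followed by the retinoblastoma relative Rbl1 (0.83 ± 0.058, limma adjusted p = 2.5e-05) and the kinase Cdk4 (0.69 ± 0.061, limma adjusted p = 7.93e-05). Rb1 itself (0.04) and its relative Rbl2 (0.07) were not called. The other D cyclins went apart from Ccnd1: Ccnd2 (-0.53) and Ccnd3 (-0.21) had negative slopes that did not pass the test, and the inhibitor Cdkn1a (-0.32) did not either. The inhibitors Cdkn1b (0.22), Cdkn1c (0.45) and Cdkn2c (0.58) rose. Without the 2 samples farthest from the median score, TH-MYCN 4 and 5, 7 of the 18 rose. In that fit 1249 of all 14315 genes did.

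Growth genes, the classical targets of MYC proteins, rose less steeply than the cell cycle. In the list for ribosome biogenesis, 15 of 20 were called rising, against 19.7% of all genes, and the median slope was 0.38. Nop58, a core protein of the box C/D nucleolar particle, was at 2.93 in TH-MYCN 4, at a median of 3.80, and at 4.25 in TH-MYCN 2, with a slope of 0.62 ± 0.075 (limma adjusted p = 0.000481). Its partners Fbl (0.50 ± 0.068, limma adjusted p = 0.000808) and Nop56 (0.46 ± 0.058, limma adjusted p = 0.000583) and the nucleolar protein Mybbp1a (0.42 ± 0.062, limma adjusted p = 0.00126) also rose. Without TH-MYCN 4, 9 of the 20 rose, where 2161 of all 14315 genes did. Cytosolic ribosomal proteins rose in 13 of 20 cases with a median slope of 0.27, and this count rested on a few samples. It was 2 without TH-MYCN 4, 5 without TH-MYCN 2 and 7 without TH-MYCN 1. Of all 14315 genes, 2161, 2303 and 2550 rose in these fits. The count without TH-MYCN 4 thus lay under the share of all genes. Rps3 had a slope of 0.39 ± 0.067 and a limma adjusted p of 0.00234, which was at most 0.0168 with any sample left out. Rps19 (0.45 ± 0.095, limma adjusted p = 0.00566) reached 0.084 in such fits.

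Nucleotide and one-carbon enzymes were split, with 7 of 20 rising, 2 falling and a median slope of 0.17, against 19.7% rising and 24.5% falling over all genes. Impdh2, the committed step to guanine nucleotides, rose by 0.54 ± 0.070 (limma adjusted p = 0.000641) and Umps by 0.41 ± 0.087 (limma adjusted p = 0.00576). Shmt1 had a slope of 0.96 ± 0.089 on its main probe (limma adjusted p = 0.000106) and 0.04 on another probe, so its probes disagreed. Phgdh and Shmt2, of serine and mitochondrial glycine metabolism, fell by 0.59 and 0.28. The respiratory chain hardly moved: 1 of 20 genes, Sdha (-0.16 ± 0.056, limma adjusted p = 0.0406), was called, and the slopes lay between -0.16 and 0.15.

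**Figure D2:**
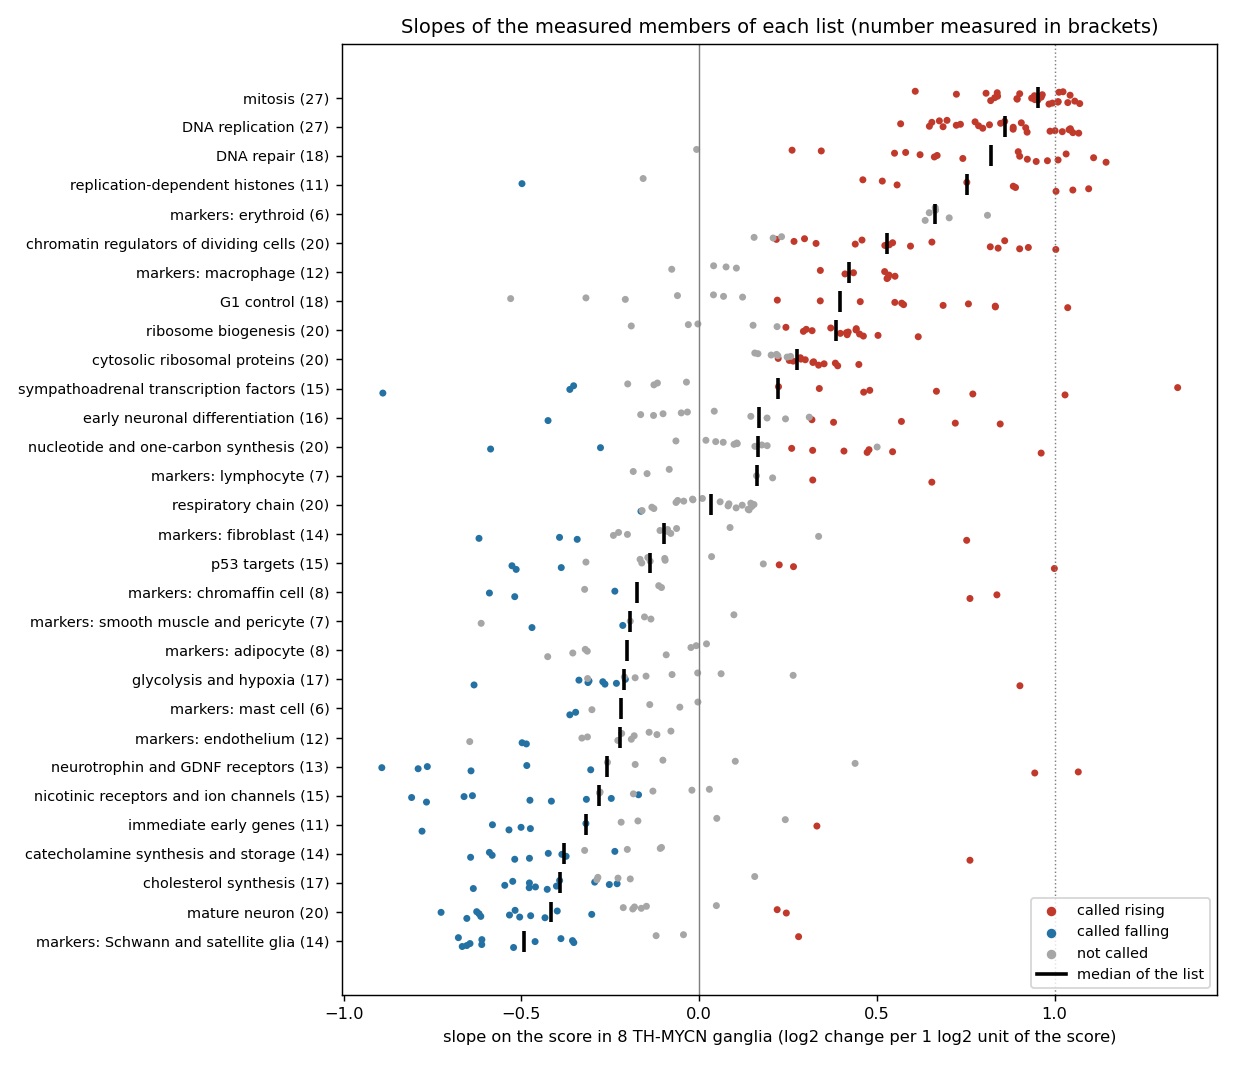
Slope on the proliferation score (x axis, log2 change per 1 log2 unit of the score) of each measured member of the lists with at least 5 measured members; red points were called rising, blue points falling and grey points neither, black lines are list medians, and the dotted line marks a slope of 1. The mitosis and DNA replication lists lie at medians of 0.95 and 0.86, and the mature neuron and glial lists at -0.42 and -0.49.

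The transcription factors of the sympathoadrenal lineage divided. Of 15 measured genes, 8 rose and 3 fell, against 19.7% and 24.5% of all genes, and the median slope was 0.22. The falling count thus lay under the share of all genes. Insm1, a zinc-finger factor of neuroendocrine precursors, was at 2.59 in TH-MYCN 4, at a median of 4.51, and at 4.76 in TH-MYCN 8. Its slope was 1.03 ± 0.091 (limma adjusted p = 7.69e-05), and the 5 samples of highest score lay at 4.46 to 4.76, of which 3 were above the primary spheres' range of 4.04 to 4.58. Wild-type ganglia were at -4.19 to -2.24. Sox11, a factor of immature neurons, rose by 0.77 ± 0.076 (limma adjusted p = 0.000156) and Isl1 by 0.46 ± 0.100 (limma adjusted p = 0.00626). Meis2, a homeobox factor, had the largest slope of the list (1.35 ± 0.363, limma adjusted p = 0.0157). Hmx1, a factor of differentiating noradrenergic neurons, fell by 0.89 ± 0.191 (limma adjusted p = 0.00594), as did Gata2 (-0.36) and Hand1 (-0.35). Hand2, Gata3 and Phox2a, which keep up noradrenergic identity, had slopes of -0.13, -0.12 and -0.20 and were not called. Without TH-MYCN 4, 3 of the 15 rose and 3 fell, where 2161 and 3227 of all 14315 genes did.

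Early neuronal genes were also mixed, with 5 of 16 measured genes rising and 1 falling (18 listed, median slope 0.17), against 19.7% and 24.5% of all genes. Ebf3 rose by 0.85 ± 0.096 (limma adjusted p = 0.00033), Dcx, doublecortin of migrating neuroblasts, by 0.72 ± 0.086 (limma adjusted p = 0.000443), Nhlh2 by 0.57 ± 0.133 (limma adjusted p = 0.00859) and Stmn1, a tubulin-binding protein, by 0.38 ± 0.071 (limma adjusted p = 0.00337). With a sample left out, the limma adjusted p reached 0.111 for Nhlh2 and 0.104 for Stmn1, so these 2 calls were not stable. Dcx was at 1.53 in TH-MYCN 4 and at 2.49 to 3.14 in the other 7. Widely used neuronal genes of the list stayed near 0 in slope, such as Elavl4 (-0.03), Gap43 (-0.05) and Tubb3 (-0.10).

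Mature neuronal genes went the other way. Of 20 measured genes (21 listed), 12 fell and 2 rose, against 24.5% and 19.7% of all genes, with a median slope of -0.42. Syn2, a synaptic vesicle protein, was at 6.58 in TH-MYCN 4, at a median of 5.86, and at 5.03 in TH-MYCN 8, and its slope was -0.65 ± 0.107 (limma adjusted p = 0.00187). Syt1, the calcium sensor of vesicle release, had a slope of -0.61 ± 0.145 (limma adjusted p = 0.00901), Vamp2, a vesicle fusion protein, -0.51 ± 0.091 (limma adjusted p = 0.00283), and the microtubule protein Map1b -0.43 ± 0.077 (limma adjusted p = 0.0026). Eno2 (-0.73) and the peripheral intermediate filament Prph (-0.63) also fell. The 2 that rose were the neurofilament genes Nefl (0.25) and Nefm (0.22), whereas the heavy neurofilament Nefh fell (-0.47). Without TH-MYCN 2 and 8 together, 4 of the 20 fell, where 1573 of all 14315 genes did, and the median slope was -0.32. Without TH-MYCN 4, 12 of the 20 fell, where 3227 of all 14315 genes did.

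Genes of catecholamine synthesis and storage fell in 9 of 14 cases and rose in 1, against 24.5% and 19.7% of all genes. Their median slope was -0.38. Slc6a2, the noradrenaline transporter, was at 6.53 in TH-MYCN 4, at a median of 5.96, and at 5.19 in TH-MYCN 2. TH-MYCN 4, 5 and 7, the ganglia of lowest score, were the highest, and TH-MYCN 4 lay just under the wild-type range (6.55 to 7.33). Its slope was -0.64 ± 0.111 (limma adjusted p = 0.00236). Chgb, a protein of the secretory granule, fell by 0.52 ± 0.065 (limma adjusted p = 0.000563) and the vesicular transporter Slc18a2 by 0.48 ± 0.067 (limma adjusted p = 0.000969). The synthesis enzymes themselves, Th (-0.32), Ddc (-0.11) and Dbh (-0.11), did not pass the test. Pnmt, which makes adrenaline and marks chromaffin cells, rose by 0.76 ± 0.075 (limma adjusted p = 0.00015), from -1.85 in TH-MYCN 4 to -0.05 in TH-MYCN 8. The falling count was 5 without TH-MYCN 2 and also 5 without TH-MYCN 2 and 8. Of all 14315 genes, 2703 and 1573 fell in these fits.

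Over the receptors and channels of the mature ganglion, falls prevailed. Of 15 measured nicotinic receptor and ion channel genes (18 listed), 9 fell and none rose, against 24.5% and 19.7% of all genes. Their median slope was -0.28. Chrnb4, a subunit of the ganglionic nicotinic receptor, was at 4.10 in TH-MYCN 4, at a median of 3.40, and at 2.48 in TH-MYCN 2. TH-MYCN 4 lay just under the wild-type range of 4.21 to 4.98, and primary spheres were at -2.73 to -1.45. The slope was -0.77 ± 0.124 (limma adjusted p = 0.00179). Its partner Chrna3 fell by 0.48 ± 0.095 (limma adjusted p = 0.00425), the calcium channel Cacna1a by 0.42 ± 0.081 (limma adjusted p = 0.00402) and the sodium channel Scn2a by 0.32 ± 0.064 (limma adjusted p = 0.00455), the last with 1 other probe of slope 0.05. Without TH-MYCN 2 and 8, 2 of the 15 fell, where 1573 of all 14315 genes did, and the median slope was -0.25.

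Among receptors for growth factors, 6 of 13 measured genes (15 listed) fell and 2 rose, with a median slope of -0.26. Over all genes, 24.5% fell and 19.7% rose. Ret, the signalling receptor of the GDNF family, was at 3.61 in TH-MYCN 4, at a median of 2.89, and at 2.02 in TH-MYCN 8, with a slope of -0.64 ± 0.125 (limma adjusted p = 0.00392). The neurotrophin receptors Ngfr (-0.77) and Ntrk2 (-0.31 ± 0.060, limma adjusted p = 0.00415) fell, as did Ltk (-0.89), the closest relative of Alk. Alk itself rose, by 0.94 ± 0.116 (limma adjusted p = 0.000519), and so did the ephrin receptor Ephb1, by 1.07 ± 0.138 (limma adjusted p = 0.000671). The rising 2 stayed called without TH-MYCN 2 and 8, while 2 of the list then fell, where 1573 of all 14315 genes did.

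**Figure D3:**
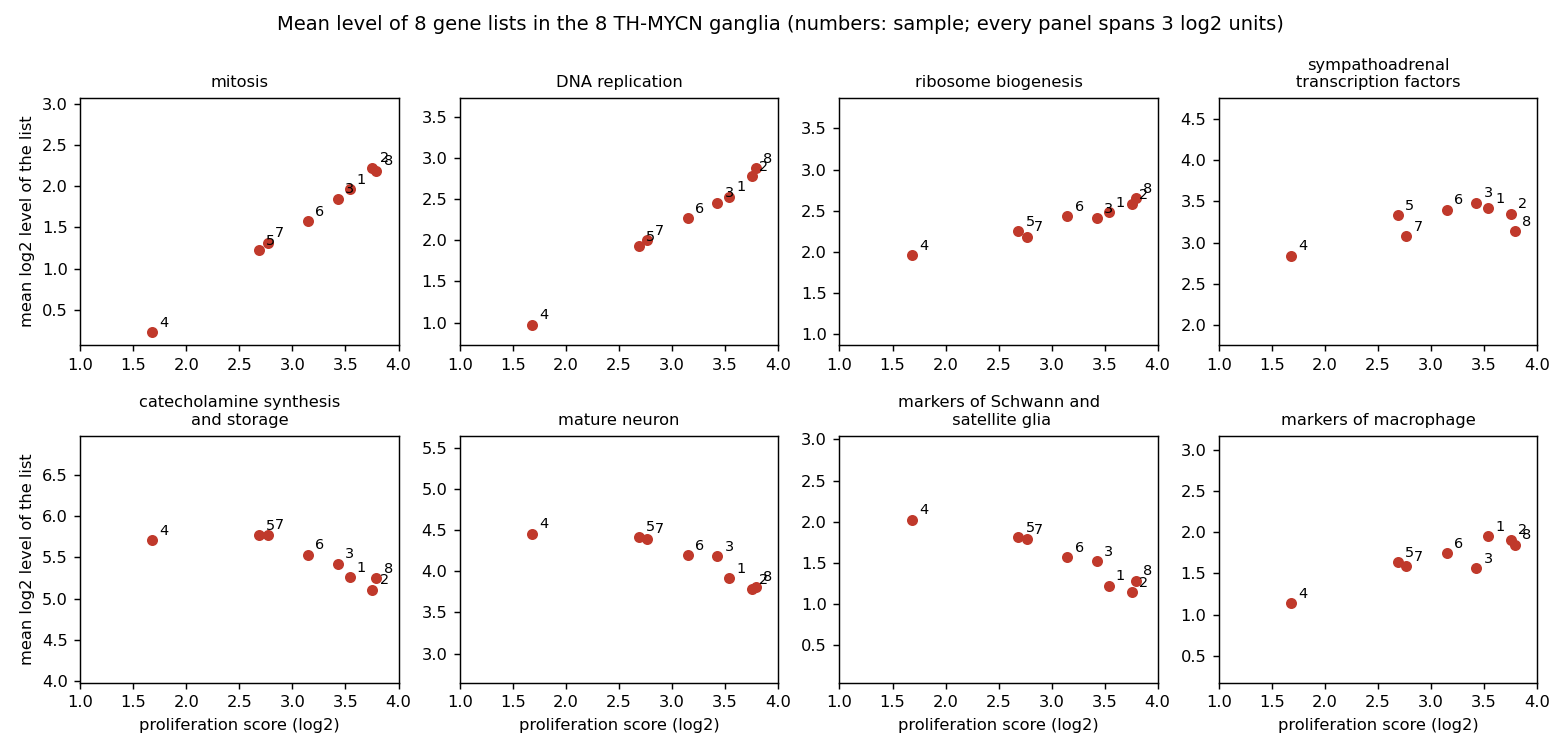
Mean log2 level (y axis, every panel spanning 3 log2 units) of 8 gene lists in the 8 TH-MYCN ganglia against their proliferation score (x axis, log2), with points numbered by sample. Mitosis and DNA replication climb with the score from TH-MYCN 4 to TH-MYCN 2 and 8, while the mature neuron and glial means decline and the catecholamine mean is level from TH-MYCN 4 to 5 and 7 and lower beyond.

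A panel of 8 genes of the sympathetic lineage and of neuroblastoma was also correlated with the score, with exact two-sided permutation tests adjusted over the 8, of which 7 are described. Alk, a receptor kinase mutated in some neuroblastomas, was at 0.62 in the lowest ganglion, 2.29 at the median and 2.65 in the highest. It was lowest in TH-MYCN 4 and 7, and the 5 ganglia of highest score lay at 2.24 to 2.65, where primary spheres were at 2.34 to 3.10 and wild-type ganglia at -3.21 to -1.66. Its r was 0.947 (exact p = 0.000992, adjusted p = 0.00397), its rho 0.881 (exact p = 0.00724, adjusted p = 0.0145) and its r without the 2 samples farthest from the median score 0.899. Ccnd1, cyclin D1, which opens the cell cycle, had r = 0.945 (exact p = 0.000521, adjusted p = 0.00397), rho = 0.905 (exact p = 0.00456, adjusted p = 0.0122) and r = 0.943 without the 2 farthest. It ran from 4.36 in TH-MYCN 4 through a median of 5.19 to 5.54 in TH-MYCN 8.

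Lin28b, an RNA-binding inhibitor of let-7 miRNAs, spanned 0.44 to 1.13 with a median of 0.73. Its r was 0.854 (exact p = 0.0037, adjusted p = 0.00739), its rho 0.952 (exact p = 0.00114, adjusted p = 0.00913) and its r without the 2 farthest 0.890. The slopes per unit were 0.94 for Alk, 0.57 for Ccnd1 and 0.32 for Lin28b.

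Myc, the relative of MYCN, ran against the score, from -1.94 in TH-MYCN 4 through a median of -2.37 to -2.57 in TH-MYCN 1. It had r = -0.885 (exact p = 0.00226, adjusted p = 0.00602), rho = -0.738 (exact p = 0.0458, adjusted p = 0.0611) and r = -0.750 without the 2 farthest. Mouse Mycn, the endogenous gene on this array, spanned 0.86 to 1.26, inside the range of wild-type ganglia. Its r of -0.676 (exact p = 0.0746, adjusted p = 0.0853; rho = -0.429, exact p = 0.299, adjusted p = 0.299) became 0.270 without the 2 farthest. The labels do not say whether its probe also reads the human transgene.

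Th, the enzyme that limits catecholamine synthesis, did not follow the score in a straight line. It was highest in TH-MYCN 5 (8.21) and 7 (8.13), intermediate in TH-MYCN 4 (7.82), and lowest in TH-MYCN 8 (7.32) and 2 (7.29). Pearson's r was -0.670 (exact p = 0.0677, adjusted p = 0.0853) and Spearman's rho -0.905 (exact p = 0.00456, adjusted p = 0.0122), and without TH-MYCN 4 and 5, the 2 farthest from the median score, r was -0.982. Dbh, which makes noradrenaline, had r = -0.385 (exact p = 0.333, adjusted p = 0.333), rho = -0.571 (exact p = 0.151, adjusted p = 0.173) and r = -0.645 without the 2 farthest. Quantile normalization gave r = -0.874 for Th (adjusted p = 0.00536, exact permutation test) and r = -0.945 for Dbh (adjusted p = 0.00258, exact permutation test), so their relation to the score depended on the normalization.

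**Figure D4:**
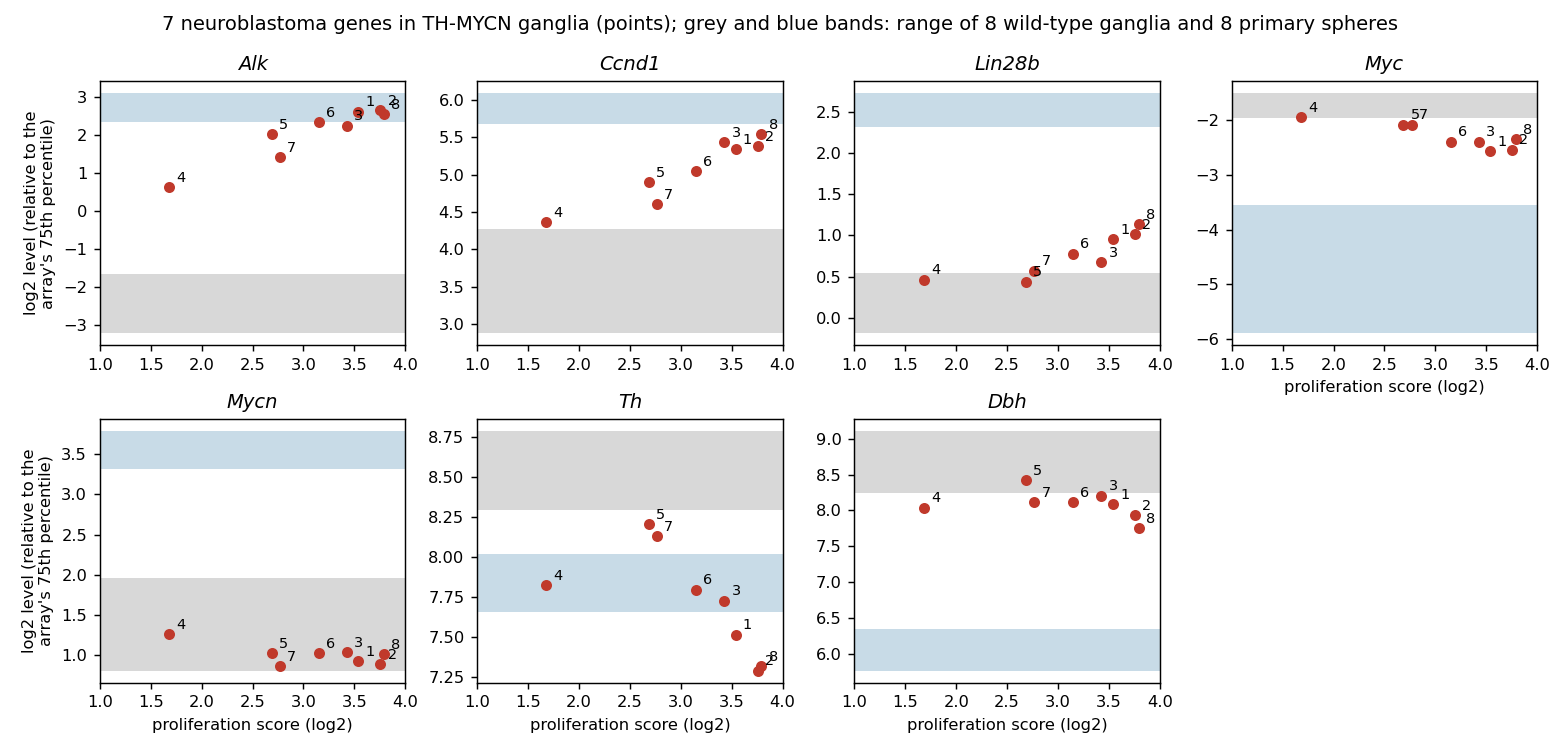
Log2 level (y axis) of 7 genes in the 8 TH-MYCN ganglia (numbered red points) against the proliferation score (x axis, log2); the grey band is the range of 8 wild-type ganglia and the blue band that of 8 primary spheres. Alk climbs from 0.62 in TH-MYCN 4 to 2.65 in TH-MYCN 2, and Th is highest in TH-MYCN 5 and lowest in TH-MYCN 2.

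Some of the steepest rises were outside the cell cycle list. Pnoc, the precursor of the neuropeptide nociceptin, had a slope of 1.17 ± 0.058 (limma adjusted p = 1.45e-05) and r = 0.997, as close to the score as a mitotic gene. It was at 2.08 in TH-MYCN 4, at a median of 3.92, and at 4.57 in TH-MYCN 2. It was not well above background in any wild-type ganglion, and primary spheres, with higher scores than every ganglion, were at only -3.32 to -2.29. Its slope stayed at 1.15 to 1.22 with each sample left out. Neurod6, a neuronal basic helix-loop-helix factor, rose by 1.15 ± 0.092 (limma adjusted p = 4.62e-05), from -2.37 to 0.21, and was likewise not well above background on wild-type arrays. Primary spheres were at -2.96 to -1.53, a range that holds TH-MYCN 4 and lies below the other 7 ganglia.

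Cardiac alpha-actin Actc1 rose by 1.16 ± 0.070 (limma adjusted p = 1.71e-05), from -1.98 in TH-MYCN 4 to 0.41 in TH-MYCN 8, and was at 2.59 to 3.00 in primary spheres. The somatostatin receptor Sstr1 (1.24 ± 0.156, limma adjusted p = 0.000571) and the homeobox gene Emx2 (1.20 ± 0.131, limma adjusted p = 0.000271) rose as well, both not well above background in wild-type ganglia. Klk1b27 (1.39 ± 0.203, limma adjusted p = 0.00112) and the X-linked Ctag2l2 (1.35 ± 0.181, limma adjusted p = 0.000782) and Ctag2l1 (1.16 ± 0.137, limma adjusted p = 0.000411) were among the 10 largest rises that stayed called with every sample left out. TH-MYCN 4 weighed on them: Ctag2l2 was at -4.95 there and at -3.41 to -2.06 in the other 7. Its slope was at lowest 0.91 with a sample left out. Cdca7l (1.17 ± 0.075, limma adjusted p = 2.01e-05), a MYC-interacting protein, and Parpbp (1.16 ± 0.073, limma adjusted p = 1.97e-05), which restrains recombination, completed the 10 largest. Klk1b27 and the Ctag2l pair belong to multigene families whose probes can share targets. Klk1b27 was well above background on all 8 wild-type arrays, at -4.29 to -1.32, a range that holds its TH-MYCN median of -2.31.

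The 10 largest falls were smaller in size, from -1.16 to -0.94. Lrrc14b had a slope of -1.16 ± 0.136 (limma adjusted p = 0.000397) and was at -2.37 in TH-MYCN 4 and at -5.10 to -3.93 in the others. The chromatin factor Prdm8 fell by 1.00 ± 0.154 (limma adjusted p = 0.00144), from -1.93 in TH-MYCN 4 to -4.35 in TH-MYCN 2. Fam43b (-0.99 ± 0.157, limma adjusted p = 0.00165), the secreted protein Scube1 (-0.98 ± 0.168, limma adjusted p = 0.00229), Sez6, a protein of dendrites (-0.99 ± 0.248, limma adjusted p = 0.0114), and the protease Capn1 (-0.97 ± 0.199, limma adjusted p = 0.00479) fell too. Tmem150c (-0.97), the neuronal adaptor Shc3 (-0.96), the activity-induced factor Egr4 (-0.95) and the sulfotransferase Chst7 (-0.94) made up the rest. All 10 had a higher mean in wild-type ganglia than the median of the TH-MYCN ganglia.

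**Figure D5:**
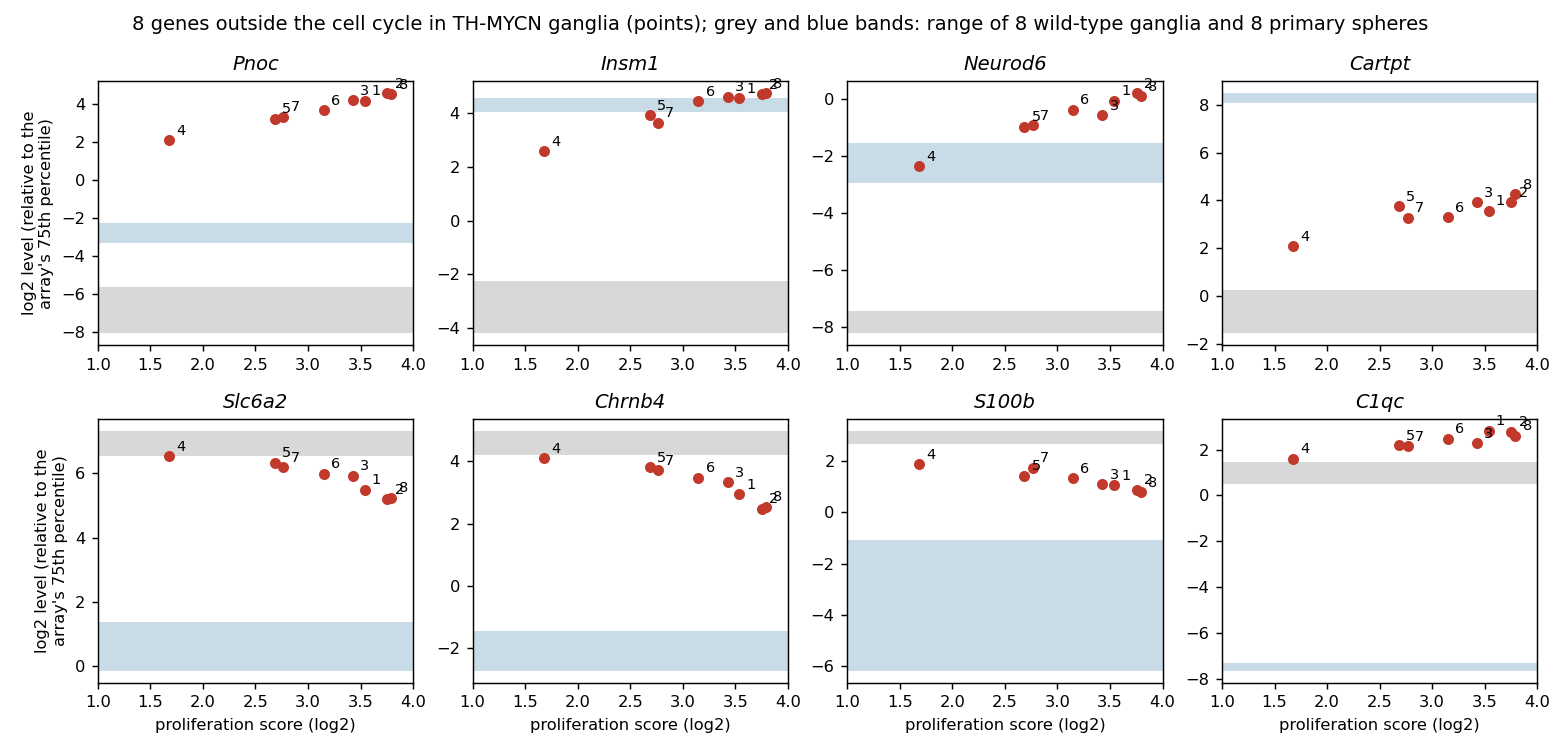
Log2 level (y axis) of 8 genes outside the cell cycle in the 8 TH-MYCN ganglia (numbered red points) against the proliferation score (x axis, log2), with the range of 8 wild-type ganglia in grey and of 8 primary spheres in blue; Pnoc and Neurod6 in wild-type ganglia and C1qc in primary spheres were not well above background. Pnoc climbs from 2.08 to 4.57, far above the spheres, and Chrnb4 declines from 4.10 to 2.48.

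Cholesterol synthesis fell in 12 of 17 cases and rose in none, with a median slope of -0.39. Of all genes, 24.5% fell and 19.7% rose. Nsdhl, a sterol dehydrogenase of the pathway, was at 1.63 in TH-MYCN 4, at a median of 1.01, and at 0.64 in TH-MYCN 2, with a slope of -0.43 ± 0.071 (limma adjusted p = 0.00205). The synthesis enzymes Hmgcs1 (-0.46 ± 0.083, limma adjusted p = 0.00273) and Sc5d (-0.48 ± 0.085, limma adjusted p = 0.0026) fell alongside. The count was 7 without TH-MYCN 2, 4 without TH-MYCN 2 and 8, and 5 with the spike-in slope as a covariate. Of all 14315 genes, 2703, 1573 and 2371 fell in these fits. Glycolytic and hypoxia genes were called falling in 8 of 17 cases (18 listed, median slope -0.21), among them Pfkp (-0.63 ± 0.101, limma adjusted p = 0.00172) and Pgam1 (-0.27 ± 0.063, limma adjusted p = 0.00936). That count was 4 without any one of TH-MYCN 1, 2, 3, 5, 6 or 8 and 5 without TH-MYCN 7. It was 2 without TH-MYCN 2 and 8, so it was not stable. Of all 14315 genes, 2703 to 3307 fell with 1 sample left out and 1573 without TH-MYCN 2 and 8. These smaller counts lay near the share of all genes and are not read as a result about the list. Egln3, an oxygen-sensing hydroxylase, rose by 0.90 ± 0.077 (limma adjusted p = 6.31e-05), from 1.08 in TH-MYCN 4 to 3.02 in TH-MYCN 8, where wild-type ganglia were at -3.73 to -3.21.

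Immediate early genes, which respond within minutes to activity or handling, fell in 6 of 11 measured cases (14 listed) and rose in 1, with a median slope of -0.32. Of all genes, 24.5% fell and 19.7% rose. Arc was at 0.28 in TH-MYCN 4, at a median of -0.47, and at -1.51 in TH-MYCN 2, with a slope of -0.78 ± 0.135 (limma adjusted p = 0.00237). Fos (-0.54 ± 0.105, limma adjusted p = 0.00402) and Egr1 (-0.47 ± 0.124, limma adjusted p = 0.0135) fell, and Atf3 rose (0.33). The falling count was 3 without TH-MYCN 2 and 8, where 1573 of all 14315 genes fell. It was 1 without TH-MYCN 4 and 5, where 1810 of all genes fell, so it then lay under the share of all genes. Targets of p53, which halts damaged cells, showed no common direction: 3 of 15 measured genes rose, 3 fell and the median slope was -0.14, close to the 19.7% and 24.5% of all genes. Perp (-0.52 ± 0.075, limma adjusted p = 0.00112) and Zmat3 (-0.39 ± 0.076, limma adjusted p = 0.00396) fell, whereas Bax (0.27 ± 0.066, limma adjusted p = 0.0111) and Gtse1 (1.00 ± 0.161, limma adjusted p = 0.00178) rose. Gtse1 is itself a gene of G2 and mitosis.

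Markers of other cell types in the ganglion moved along the gradient as well. Of 14 measured markers of Schwann and satellite glia (16 listed), 11 fell and 1 rose, against 24.5% and 19.7% of all genes. Their median slope was -0.49. S100b was at 1.87 in TH-MYCN 4, at a median of 1.21, and at 0.77 in TH-MYCN 8, with a slope of -0.52 ± 0.082 (limma adjusted p = 0.00157). The myelin genes Mag (-0.65 ± 0.128, limma adjusted p = 0.00404), Ncmap (-0.67 ± 0.120, limma adjusted p = 0.00281) and Cnp (-0.61 ± 0.121, limma adjusted p = 0.00424) fell, and so did the glial factor Sox10 (-0.68). A summed level is the log2 of the members' levels added on the linear scale, so the brightest members weigh most. For the glial list it was 6.61 to 7.26 in TH-MYCN ganglia, 7.69 to 7.92 in wild-type ganglia and 4.56 to 5.34 in primary spheres. The glial list thus moved with the neuronal lists that fell, and its part in their slopes was not tested. The falling count was 6 without TH-MYCN 2 and 8, 5 without TH-MYCN 4 and 5, and 10 without TH-MYCN 4 alone. Of all 14315 genes, 1573, 1810 and 3227 fell in these fits.

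Macrophage markers rose in 8 of 12 measured cases (14 listed), against 19.7% of all genes, with a median slope of 0.42. C1qc, a chain of complement C1q, was at 1.60 in TH-MYCN 4, at a median of 2.38, and at 2.83 in TH-MYCN 1, all above the wild-type range of 0.48 to 1.45. Its slope was 0.53 ± 0.084 (limma adjusted p = 0.00164). Aif1 (0.55 ± 0.113, limma adjusted p = 0.00489), Fcer1g (0.53 ± 0.099, limma adjusted p = 0.00319) and Tyrobp (0.53 ± 0.111, limma adjusted p = 0.00511) rose with similar slopes. The defining receptors Csf1r (0.04), Adgre1 (0.08) and Mrc1 (-0.08) were not called. The summed level was 5.21 to 6.15, against 4.52 to 5.16 in wild-type ganglia and -0.34 to 0.44 in primary spheres. Without TH-MYCN 4, 3 of the 12 rose, where 2161 of all 14315 genes did.

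The remaining lists were less uniform. The fibroblast and endothelial counts lay under the 19.7% of all genes that rose and the 24.5% that fell, and the smooth muscle, mast cell and lymphocyte lists had at most 7 measured genes each, so none of these counts is read as a result about its cell type. Fibroblast markers fell in 3 of 14 cases and rose in 1, Fbln1 (0.75 ± 0.094, limma adjusted p = 0.000554), with a summed level of 7.77 to 8.21 against 8.64 to 9.05 in wild-type ganglia. Endothelial markers fell in 2 of 12 cases, Egfl7 (-0.49 ± 0.150, limma adjusted p = 0.0274) and Vwf (-0.50 ± 0.161, limma adjusted p = 0.0324), and smooth muscle markers in 2 of 7, Actg2 (-0.47 ± 0.103, limma adjusted p = 0.00656) and Pdgfrb (-0.22 ± 0.078, limma adjusted p = 0.0495). Mast cell markers fell in 2 of 6 cases, Gata2 and Hdc, of which Gata2 is also a neuronal factor. Lymphocyte markers rose in 2 of 7 measured cases, Lck (0.65 ± 0.080, limma adjusted p = 0.0005) and Ptprc (0.32 ± 0.116, limma adjusted p = 0.0497), while Cd3e had a slope of -0.08. Erythroid genes had positive slopes of 0.64 to 0.81 in all 6 measured cases and none passed the test (Alas2 0.81 ± 0.409, limma adjusted p = 0.136), though 5 were called without TH-MYCN 7. The summed erythroid level spanned 6.73 to 8.97, against 6.96 to 9.84 in wild-type ganglia.

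Adipocyte markers had no calls among 8 measured genes (Fabp4 -0.43 ± 0.600, limma adjusted p = 0.595), nor had adrenal cortex markers among 3 (Star 0.63 ± 0.378, limma adjusted p = 0.201). Of the chromaffin markers, Cartpt rose by 0.84 ± 0.151 (limma adjusted p = 0.00276), from 2.08 in TH-MYCN 4 to 4.26 in TH-MYCN 8, and was at 8.08 to 8.49 in primary spheres; without TH-MYCN 4 its limma adjusted p was 0.119. Of the other chromaffin markers, Pnmt, Chgb, Slc18a1, Chga, Th and Dbh are also in the catecholamine list, and in all 2 of its 8 members rose and 3 fell. Of 4 measured genes each, mesothelial and epithelial markers had 1 rise, Krt18 (0.75 ± 0.224, limma adjusted p = 0.0246), and 1 fall, Cdh1 (-0.84 ± 0.112, limma adjusted p = 0.000771), and pancreatic acinar markers 1 fall, Amy2a5 (-0.38 ± 0.075, limma adjusted p = 0.00434). The part of these cells in the gradient was not tested.

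Whether the slopes differ between the ganglia and primary spheres, which the ordering did not use, was asked in one model of both groups. Of 12881 genes well above background on all 16 arrays, none (0%) was called different (limma, smallest adjusted p = 0.183), and 508 had an unadjusted p under 0.05. The spheres differed too little in score for a precise slope: the median standard error of a slope difference was 0.786, against 0.0848 for a slope in the ganglia, so a difference of the size of most slopes here was not detectable. The smallest unadjusted p-values belonged to Nipal2, with a slope of -0.35 in ganglia and 2.62 in spheres (difference -2.96 ± 0.480, limma adjusted p = 0.183), and Dlk1, with 0.88 and -4.18 (difference 5.06 ± 0.872, limma adjusted p = 0.183). These 2 groups are fitted on their own scores and share no sample.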

How the data were processed

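RNA of 28 samples was measured on 32 one-colour Agilent arrays of 62976 features. The deposited scanner files give the intensity of each spot as processed by Feature Extraction 11.5.1.1, per the file headers. The deposited value table holds log2 values, which matched the scanner values within 0.05 for 99.9% after a constant per probe; it was used as an alternative. Here the log2 processed intensity minus the array's 75th percentile was used, after control and flagged spots were left out and spots of a probe averaged; no spot was saturated. Symbols came from a RefSeq table of build GRCm38.p6: 27235 of 55681 probes were named, for 20660 symbols, and 28446 stayed unnamed. The probe with the highest mean over all arrays stood for a gene.

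Genes well above background on all 8 TH-MYCN arrays were regressed on the score with limma 3.58.1 in R 4.3.3 (lmFit, eBayes), adjusted by Benjamini-Hochberg over all tested genes, and checked on simulated data. Single measures were tested by exact permutation. The precision is limited by the number of samples. The text names 4 genes per list by adjusted p, the 10 largest rises and 10 largest falls called with every sample left out, the 5 highest and 5 lowest r, the panel genes, and the 5 largest slope differences in each direction by p. Some genes that these rules name are not reported here. Other members were named after their values were seen. The members, lists and tests were chosen with earlier results of these data known.

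Replicate numbers are common to ganglia and spheres; deviations of same-numbered samples correlated at -0.06 to 0.15, and 1 of 8 matched its own number best, so the numbers were not taken as pairs. Alternatives covered background, normalization, filter, probe choice, score genes, slide, and samples left out.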

Additional observations from a re-analysis of the deposited data

Results flagged for a closer look

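Of 171 series of 8 TH-MYCN ganglia checked, 21 held 1 sample far from the other 7 (a gap to the nearest sample above 0.526 of the range, which chance gives in about 1 in 20). TH-MYCN 4, the ganglion of lowest score, was that sample in 18 of them. Many of the series are genes named for their slope or r on the score, and they are correlated with one another. Genes picked to follow the score share the gap below TH-MYCN 4, so the rate of 1 in 20 is no benchmark for these counts. It was low for Ctag2l2 (-4.95), Neurod6 (-2.37), Rad54l (-1.77), Mcm7 (2.93), Cdk4 (4.19), Chaf1b (1.66), Hmgb2 (4.22), Ezh2 (0.81), Dcx (1.53), Cartpt (2.08), Shmt1 (-2.19), H1f1 (-1.93), H3c1 (-2.11) and H2ac4 (4.08), and for the mean of the histone list (1.07). It was high for Lrrc14b (-2.37), Ap1g2 (-0.38) and Mycn (1.26). The score itself did not put TH-MYCN 4 beyond this limit (0.476 of the range).

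TH-MYCN 1 was high for Star, the steroidogenic transporter (-2.09), and for the mean of the adrenal cortex list (-1.32), and TH-MYCN 8 was high for Ptprc, the leukocyte antigen CD45 (-2.11). The cause of these values was not tested.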

How the results depend on the processing

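The numbers of genes called kept within 1.5 times of 2826 rising and 3512 falling in limma under all but 2 settings, both chosen after seeing the data. Without TH-MYCN 2 and 8 together, 1670 rose and 1573 fell. Without the 2 samples farthest from the median score, 1249 rose and 1810 fell. Both leave 6 samples. With single samples left out, 2161 to 2847 rose and 2703 to 3307 fell. The share of calls that rise was 44.6%, 48.4% with scaling to the array median, 51.5% without TH-MYCN 2 and 8, 40.1% without TH-MYCN 4 and 40.8% without the 2 farthest samples. Of the slopes of named genes, 3764 kept their direction and side of the threshold, 167 no longer passed it, 9 newly did and 4 reversed. The 4 are of 3 genes that were not called: Fabp4 and Mycn without TH-MYCN 4 (slopes of -0.71 to 0.65 and of -0.14 to 1.3e-05 over the fits with 1 sample left out), Mycn without the 2 farthest samples (0.053) and Dbh without TH-MYCN 2 and 8 (0.028); the cause was not tested. No tested gene was called in the opposite direction, except 4 genes with the probe chosen by its mean over the TH-MYCN ganglia.

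Th and Dbh passed the threshold with quantile normalization (r = -0.874 and -0.945), and Th also when centred within slides (r = -0.742); the cause was not tested. For the slope difference between ganglia and primary spheres, 0 genes were called with the replicate block (444 at an unadjusted p under 0.05), and 0 to 1 with a sample left out, the 1 gene without primary sphere 7. The design is limited to 8 samples, 1 of which, TH-MYCN 4, covers the lower end of the score, and to probes above background.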
